A study of Mus musculus with 6 samples.

Results

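The 9 genes described here are markers of the adipocyte, the cell that stores triglyceride: Pparg, Cebpa, Adipoq, Cfd, Fabp4, Lpl, Plin1, Cidec and Car3. They were taken by symbol from a deposited table of raw read counts for 55401 mouse genes, and all 9 were found, each under 1 Ensembl identifier. Positions are given on GRCm38 for the whole gene. The table covers 6 RNA-seq libraries of knee joint articular cartilage from 10-week-old mice. The 3 CTRL libraries carry the genotype label WT and the 3 CKO libraries the label Adseverin knockout. Adseverin, encoded by Scin, severs and caps actin filaments. Both groups had received tamoxifen (1.5 mg for every 10 g of mouse, once a day on 5 days) starting at 8 weeks, so the controls carry the drug exposure too. The sources used here give neither the Cre driver, nor the deleted part of Scin, nor whether each library is a separate mouse. A p-value below therefore reflects how far these libraries scatter, and part of that scatter may be technical.

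Adipocytes form when PPAR-gamma and C/EBP-alpha, a pair of transcription factors that keep each other on, switch on the genes of fat storage. The mature cell hydrolyses circulating lipoproteins with lipoprotein lipase, carries fatty acids on the binding protein FABP4, and packs triglyceride into a droplet coated with perilipin 1 and enlarged by CIDEC, and it secretes adiponectin and adipsin. In the knee, adipocytes lie in the fat pad behind the patellar tendon and in the marrow of the bone under the cartilage, while cartilage itself holds chondrocytes. None of the genes is wholly private to fat: endothelium and macrophages also express Fabp4, Lpl or Pparg, skeletal muscle expresses Lpl and Car3, and Cebpa is used by myeloid cells. In bulk tissue, fewer cells of a type and less RNA per cell cannot be told apart.

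Libraries held 22664828 to 31014996 reads. Scin stood at 185 to 219 CPM (counts normalised to library size with TMM factors) in CTRL and 29.4 to 39.1 CPM in CKO, so each library matched its label. Of 16260 genes tested with edgeR's quasi-likelihood test, 1 gene, Scin itself, had a Benjamini-Hochberg adjusted p under 0.05. The labelled tissue was checked on 10 chondrocyte markers, all detected, which summed to 32219 to 33335 CPM in CTRL and 34884 to 40083 CPM in CKO. Bone markers were abundant as well, with Ibsp (bone sialoprotein) at a mean of 24417 CPM in CTRL. The 9 adipocyte markers together summed to 258 to 666 CPM per library, and to 27.2 to 187 CPM without Car3.

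No adipocyte marker passed the test between CKO and CTRL, and for every marker the libraries of the groups overlapped. All 9 genes had a log2 fold change (CKO minus CTRL) below 0, with a median of -0.67, where 49.4% of all tested genes were below 0 and the median over all genes was 0.0037. In 4 of 9, Cfd, Fabp4, Plin1 and Cidec, it was -1 or lower, against 2.82% of all tested genes. By edgeR, 0 of 9 had an adjusted p under 0.05, against 0.00615% of all tested genes, and 2 of 9, Cfd and Fabp4, had an unadjusted p under 0.05, against 6.50%. DESeq2 also put 0 of 9 past an adjusted p of 0.05, against 0.444% of the genes for which it gave one. In 0 of 9 genes did the groups separate without overlap, against 12.3% of all tested genes. CTRL 3 was the lowest of the controls for all 9 genes and lay within or below the CKO range for all 9, and 34.5% of all tested genes had CTRL 3 below both other controls. It was more than 2-fold below the lower of the other controls for 6 of 9 genes, against 5.01% of all tested genes. CTRL 1 and CTRL 2 were both above every CKO library for 6 of 9, against 11.2%. CTRL 2 was the highest of the 6 libraries for 8 of 9 genes, against 17.7% of all tested genes. These counts by single library were not among the planned results and are a description. The shares over all genes are not matched for abundance. Of 9 tested skeletal muscle genes, CTRL 3 was below both other controls in 8 and CTRL 2 was the highest library in 8.

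**Figure D1:**
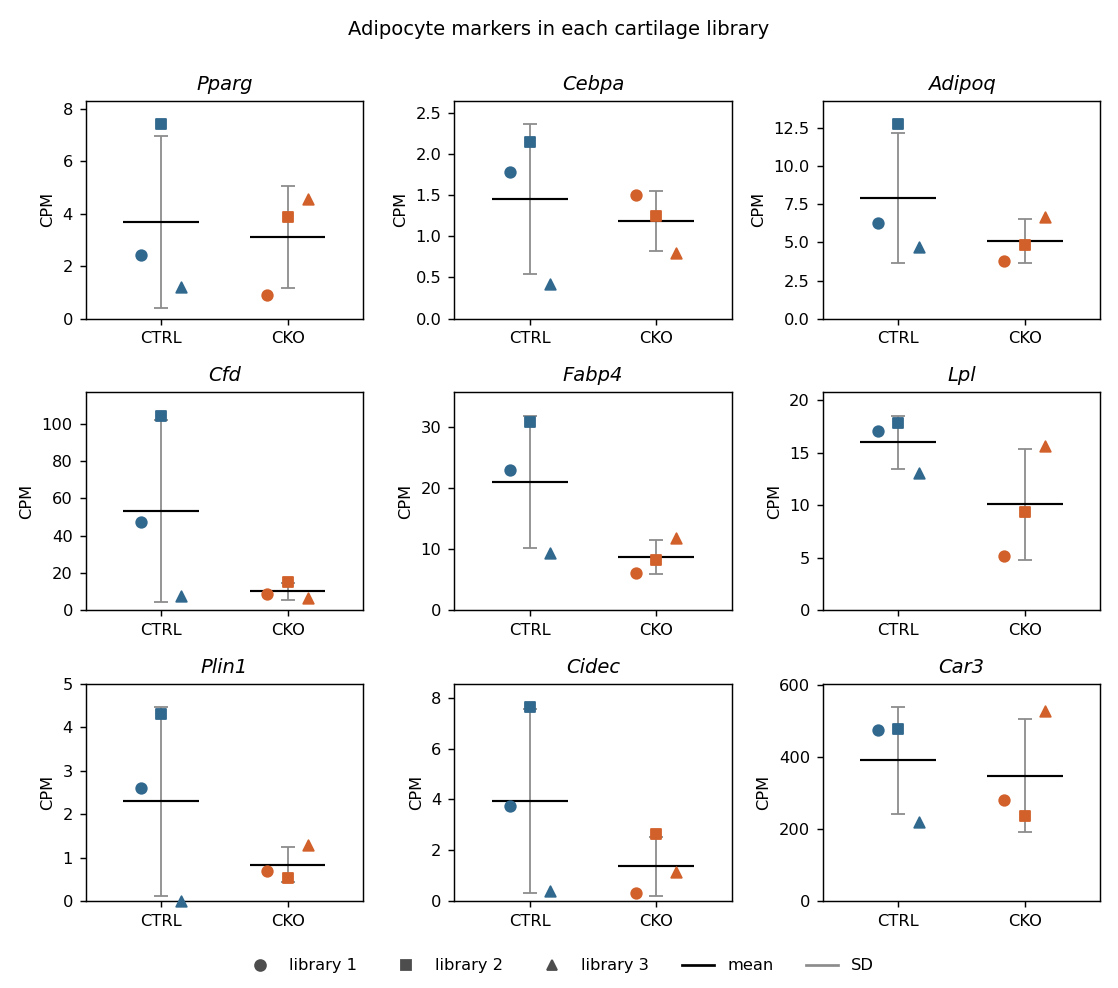
CPM of each adipocyte marker (vertical axis, linear, a separate scale for each gene) in the 3 CTRL and 3 CKO libraries, with the symbol shape giving the library number, black bars the group mean and grey bars the SD. CTRL 2 (blue square) is the highest point in every panel except that of Car3, and CTRL 3 (blue triangle) lies among or below the CKO libraries throughout.

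Pparg (ENSMUSG00000000440.12, chr6:115360951-115490399, plus strand) encodes PPAR-gamma, the nuclear receptor that drives fat cell formation and the target of the thiazolidinedione drugs. Its libraries stood at 2.42, 7.42 and 1.22 CPM in CTRL 1 to 3 and at 0.885, 3.88 and 4.56 CPM in CKO 1 to 3. The groups overlapped across almost their whole range, with CTRL holding the highest library and the lowest but one. The log2 fold change was -0.24 ± 0.75 (SE, edgeR adjusted p = 0.981), and it turned to 0.77 without CTRL 2 and to 0.20 without CKO 1. Cebpa (ENSMUSG00000034957.10, chr7:35119293-35121928, plus strand) encodes C/EBP-alpha, which acts with PPAR-gamma to hold the mature state. It was at 1.78, 2.15 and 0.418 CPM in CTRL and at 1.51, 1.25 and 0.795 CPM in CKO, from 11 to 50 reads per library. CTRL 3 was the lowest of the 6 libraries and the other controls the highest, so the CKO libraries lay between them. The difference was -0.29 ± 0.67 on the log2 scale (edgeR adjusted p = 0.971) and changed sign, to 0.10, without CTRL 2. An antisense gene overlaps the span of Pparg and another that of Cebpa in the annotation, and whether their exons overlap was not examined. Since no strand setting is given, it is not known how reads from any shared stretch were counted.

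Promoter sequence is shown for 3 of the markers because they hold a match to the C/EBP motif, the site of the factor encoded by Cebpa. Entries for 6 of the 9 genes (Pparg, Cebpa, Adipoq, Cfd, Plin1 and Cidec) were found among RefSeq promoters of GRCm38.p6, with 9 start sites in all, and the 250 bases upstream of each start were searched on both strands. The C/EBP motif TTGCNNAA was present in 3 of 9 windows, 1 each for Pparg, Plin1 and Cidec, and in 9.56% of all 32851 windows. Each sequence below reads 5′ to 3′ on the gene's strand and ends at the base before the start site, with capitals marking matches to the motifs searched.
Pparg, start 3, plus strand, chr6:115421816-115422065: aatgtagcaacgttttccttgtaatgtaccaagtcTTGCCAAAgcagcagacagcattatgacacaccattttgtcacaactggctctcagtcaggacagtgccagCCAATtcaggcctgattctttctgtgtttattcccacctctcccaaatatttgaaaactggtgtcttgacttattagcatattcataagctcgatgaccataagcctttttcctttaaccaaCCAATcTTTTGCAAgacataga
Plin1, minus strand, chr7:79732777-79733026: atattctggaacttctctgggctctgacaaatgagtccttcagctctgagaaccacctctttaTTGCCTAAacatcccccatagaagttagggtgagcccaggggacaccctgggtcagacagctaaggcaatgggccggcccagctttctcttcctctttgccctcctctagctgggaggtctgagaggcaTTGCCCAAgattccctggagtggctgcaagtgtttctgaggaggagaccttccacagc
Cidec, start 1, minus strand, chr6:113434765-113435014: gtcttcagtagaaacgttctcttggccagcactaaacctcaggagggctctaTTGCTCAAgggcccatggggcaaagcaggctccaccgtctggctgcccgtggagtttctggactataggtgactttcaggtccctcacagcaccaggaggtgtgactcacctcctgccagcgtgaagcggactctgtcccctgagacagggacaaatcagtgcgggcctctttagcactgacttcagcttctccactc
In Pparg the C/EBP matches lie at -215 to -208 and, on the other strand, at -16 to -9 from the start, and the other capitals, at -144 to -140 and -22 to -18, are CCAAT boxes. In Plin1 the C/EBP matches lie at -187 to -180 and -58 to -51, and in Cidec at -198 to -191. The direct repeat bound by PPAR-gamma with its partner RXR was sought as AGGTCA in tandem, with any 1 base between the copies, and more loosely with any base at position 4 of each copy. Neither form was in the 9 windows, and 0.0335% and 0.338% of all windows held them. A single AGGTCA, which the repeat contains, was in 2 of 9 windows, both of Pparg, against 14.0% of all windows. TATAAA was in 2 of 9 windows (Pparg and Cebpa) against 12.4%, and CCAAT in 3 of 9 (2 of Pparg, 1 of Adipoq) against 33.8%. These are letter matches and no binding was measured.

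The secreted products gave the marker with the largest difference. Cfd (ENSMUSG00000061780.6, chr10:79890853-79892655, plus strand) encodes adipsin, complement factor D, a serine protease of the alternative complement pathway that fat releases in quantity. It measured 47.1, 104 and 7.30 CPM in CTRL 1 to 3 and 8.81, 14.9 and 6.19 CPM in CKO 1 to 3. CTRL 1 and CTRL 2 were above every CKO library, while CTRL 3 was below CKO 1 and CKO 2, and the controls spanned a 14.3-fold range. The means were 53.0 ± 48.8 CPM in CTRL and 9.98 ± 4.49 CPM in CKO (SD, n = 3 each). The log2 fold change of -2.40 ± 0.78 did not pass (edgeR unadjusted p = 0.0144, adjusted p = 0.683). It was -1.45 without CTRL 2 and -2.91 without CTRL 3.

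Adipoq (ENSMUSG00000022878.5, chr16:23146536-23158028, plus strand) encodes adiponectin, a hormone made by mature adipocytes. Its reads numbered 176, 291 and 124 in CTRL and 85, 147 and 159 in CKO, or 6.26, 12.8 and 4.71 CPM and 3.76, 4.84 and 6.65 CPM. No library was without the transcript, and CTRL 2 stood apart from 5 libraries that lay close together. The difference of -0.63 ± 0.41 on the log2 scale did not pass (edgeR adjusted p = 0.861), and it was -0.12 without CTRL 2.

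The genes of fatty acid uptake and transport differed in where their spread lay. Fabp4 (ENSMUSG00000062515.3, chr3:10204088-10208576, minus strand) encodes a cytosolic carrier of fatty acids. It measured 22.9, 30.9 and 9.39 CPM in CTRL and 6.07, 8.30 and 11.8 CPM in CKO. CTRL 3 lay inside the CKO range and the other controls lay above it. The means were 21.1 ± 10.9 CPM in CTRL and 8.71 ± 2.87 CPM in CKO, a log2 fold change of -1.27 ± 0.42 (edgeR unadjusted p = 0.0153, adjusted p = 0.689). With single libraries left out the change ran from -1.63 to -0.90. DESeq2 gave Fabp4 the smallest adjusted p of the 9 markers, 0.119 (DESeq2 unadjusted p = 0.00103), which did not pass either. Lpl (ENSMUSG00000015568.16, chr8:68880491-68907448, plus strand) encodes lipoprotein lipase, which frees fatty acids from circulating lipoproteins at the capillary wall. It was at 17.1, 17.8 and 13.1 CPM in CTRL and at 5.18, 9.38 and 15.6 CPM in CKO. Here the controls were close together, and the spread lay in the CKO group, where CKO 3 exceeded CTRL 3. The log2 fold change was -0.67 ± 0.36 (edgeR adjusted p = 0.813), and it was -1.13 without CKO 3 and -0.36 without CKO 1.

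The droplet protein genes had the widest spread of the 9, with biological coefficients of variation (edgeR's estimate of the spread beyond counting error) of 1.02 for Plin1 and 0.80 for Cidec. Plin1 (ENSMUSG00000030546.14, chr7:79720218-79732903, minus strand) encodes perilipin 1, the coat protein that guards the fat droplet against lipases until adrenergic signals release them. Its reads numbered 73, 98 and 0 in CTRL and 16, 16 and 31 in CKO, or 2.60, 4.30 and 0 CPM and 0.708, 0.527 and 1.3 CPM. The control group held both the highest libraries and the library without a read, where 3 reads, 0.114 CPM, is the level that a count of 0 allows from counting error alone. The log2 fold change of -1.44 ± 1.22 (edgeR adjusted p = 0.897) took the opposite sign in limma-voom (0.46) and in limma-trend on the normalized signal (0.10). Cidec (ENSMUSG00000030278.11, chr6:113424634-113435760, minus strand) encodes a protein that fuses small droplets into a large one. It was at 3.74, 7.63 and 0.418 CPM in CTRL and at 0.310, 2.63 and 1.17 CPM in CKO. CTRL 3 lay near the bottom of the CKO range, 18.3-fold below CTRL 2. The difference was -1.50 ± 0.98 (edgeR adjusted p = 0.861), -0.59 without CTRL 2 and -2.39 without CKO 2.

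Car3 (ENSMUSG00000027559.5, chr3:14863512-14872523, plus strand) encodes carbonic anhydrase III, an abundant cytosolic protein of fat and of slow skeletal muscle, and it was the most abundant marker per length. It measured 477, 479 and 221 CPM in CTRL and 282, 237 and 529.7 CPM in CKO. The highest library was CKO 3 and the lowest CTRL 3, so the groups overlapped from end to end. The log2 fold change was -0.17 ± 0.35 (edgeR adjusted p = 0.969), with a range of 2 SE on either side from -0.88 to 0.54, and it was -0.59 without CKO 3 and 0.05 without CKO 2. Car3 made up 71.9% to 91.7% of the summed CPM of the 9 markers.

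**Figure D2:**
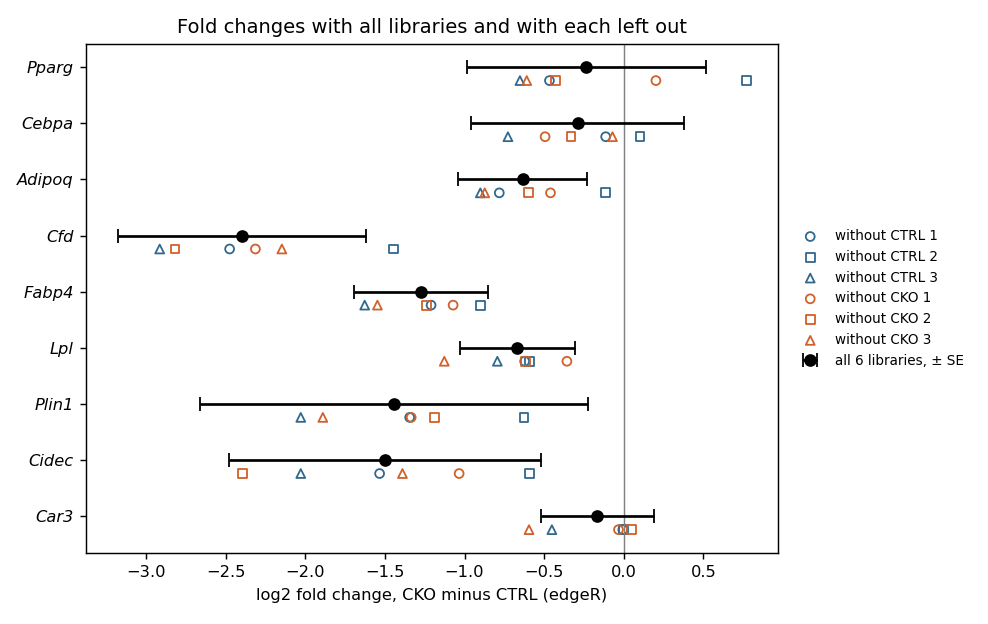
Log2 fold change (CKO minus CTRL) of each adipocyte marker with all 6 libraries (black, bars are SE) and with each library left out in turn (open symbols, blue for CTRL and orange for CKO). Pparg moves to 0.77 and Cebpa to 0.10 without CTRL 2, and Cfd stays between -2.91 and -1.45.

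Levels were compared between the genes only per length, as RPKM (CPM per kilobase of the longest protein-coding transcript). Averaged over the 6 libraries, Car3 was at 221 RPKM, Cfd at 34.1, Fabp4 at 16.6, Adipoq at 5.03, Lpl at 3.16, Pparg at 1.6, Cidec at 1.54, Plin1 at 0.558 and Cebpa at 0.501 RPKM. Car3 exceeded Cfd, Fabp4 exceeded Adipoq, Adipoq exceeded Lpl and Lpl exceeded Pparg in 6 of 6 libraries. Cfd exceeded Fabp4 in 4 of 6 and Pparg exceeded Cidec in 4 of 6. Cidec exceeded Plin1 in 5 of 6 and Plin1 exceeded Cebpa in 3 of 6. Those neighbours thus did not hold their order in every library. Per length, Fabp4 was 2.32 to 5.28 times Adipoq across libraries, a 2.27-fold span, and Lpl spanned 2.02-fold and Car3 2.12-fold relative to Adipoq. Cfd was 10.5 times Adipoq in CTRL 1 and 11.5 times in CTRL 2, but 2.17 times in CTRL 3 and 1.3 to 4.33 times in the CKO libraries. Cidec spanned 7.26-fold relative to Adipoq, from 0.0619 in CKO 1 to 0.449 in CTRL 2. The markers were thus not in 1 fixed proportion across the libraries.

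The markers varied together all the same. Over the 6 libraries, 35 of 36 pairs of markers had a positive Pearson r of log2 CPM, with a median of 0.68 and a range from -0.01 (Cebpa and Lpl) to 0.90 (Adipoq and Fabp4). These values describe 6 points that share their libraries and, for most genes, the high value of CTRL 2. Each gene was also compared with the mean of the other 8 markers after standardising, and r ran from 0.59 for Cebpa and 0.63 for Lpl to 0.91 for Fabp4 and Cidec. Genes of some other cell types had a positive r with the markers' mean too. These were 9 of 9 tested endothelial genes (median 0.37), 9 of 9 of skeletal muscle (0.48) and 8 of 9 of macrophages (0.72). It was positive for 3 of 10 chondrocyte genes (median -0.40) and 0 of 8 erythroid genes (-0.52). Positive r was thus not particular to the adipocyte markers. The biological coefficient of variation had a median of 0.58 over the 9 markers and 0.22 over all tested genes. It was 0.61 for Cfd, where the median over the 500 genes nearest in abundance was 0.15, and 0.30 for Car3, where it was 0.10. For Cebpa the values were 0.58 and 0.54, so its spread was near that of genes of its level.

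The 10 genes outside the set whose log2 CPM followed the markers' mean most closely, of 12809 genes with a mean of at least 2 CPM, were Mrpl18, Bloc1s6, Pmpcb, Cd34, Armc5, Hspa9, C3, Zkscan14, Ecm1 and Ecscr. Pearson r ran from 0.96 to 0.99 over 6 libraries. These are the highest of 12809 values, each from 6 points. Such a pick yields high values by itself, and no test of shared regulation was made. Mrpl18, a mitochondrial ribosomal protein gene, led with an r of 0.99 although its level ran only from 64.8 to 73.1 CPM. Cd34, a surface glycoprotein of endothelium, stromal progenitors and blood stem cells, ran from 16.6 CPM in CTRL 3 to 46.1 CPM in CTRL 2. The complement gene C3, whose convertase adipsin completes, ran from 8.90 CPM in CKO 1 to 26.2 CPM in CTRL 2. None of the 10 passed between the groups (edgeR adjusted p from 0.867 to 0.968).

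Of 15 relatives of the markers in the same gene families, 13 were tested and 0 passed by edgeR, with 1 lower (Cebpb) and 1 higher (Car2) at an unadjusted p under 0.05, against 2.96% and 3.54% of all tested genes. DESeq2 called 1 of them, Car2, against 0.444% of the genes to which it gave an adjusted p. Plin2, a perilipin of most cell types, was at 80.2, 53.4 and 51.6 CPM in CTRL and at 47.7, 68.8 and 59.4 CPM in CKO. Plin3, likewise widespread, stood at 58.7 ± 4.31 CPM in CTRL and 58.1 ± 7.51 CPM in CKO (SD, n = 3 each). Per length Plin2 was at 32.7 RPKM in CTRL where Plin1 was at 0.816. Plin4, a perilipin of fat and muscle, had 24, 57 and 6 reads in CTRL and 0, 44 and 8 in CKO (-0.97 ± 1.27 on the log2 scale). Cebpb and Cebpd, which act early in fat cell formation and are used in many tissues, were at -0.28 ± 0.10 and -0.32 ± 0.20 on the log2 scale (edgeR adjusted p = 0.700 and 0.854). Car2, the carbonic anhydrase of red cells, osteoclasts and kidney, differed in sign from Car3. It was at 90.5, 64.9 and 91.4 CPM in CTRL and at 113, 136 and 197 CPM in CKO, with every CKO library above every control, as for 6.41% of all tested genes. The difference was 0.85 ± 0.21 on the log2 scale (edgeR adjusted p = 0.605, DESeq2 adjusted p = 0.0126). All 8 erythroid markers were above 0 in the same comparison (median 0.51). They summed to 2154, 2293 and 2481 CPM in CTRL and to 3430, 2312 and 2635 CPM in CKO. Among the CKO libraries, CKO 1 had the highest erythroid sum and the lowest level of Car2. The part of erythroid cells in the level of Car2 was not tested. Nor was that of osteoclasts, for which no marker list was compared. Fabp5 and Fabp3 were at -0.45 ± 0.49 and 0.46 ± 0.53, Cidea at -0.61 ± 0.54, and Ppara and Ppard at -1.17 ± 0.73 and 0.40 ± 0.47. Lipc, the lipase of liver, was at 0.03 ± 0.23 and Lipg, the endothelial lipase, at 1.39 ± 1.17. For Plin5 and Cideb there were too few reads for the test, from 0 to 10 per library.

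The wider machinery of fat storage was compared over 9 lists with 84 distinct genes, of which 74 were tested and 39 lay below 0 (median -0.01). Not one passed by edgeR (smallest adjusted p = 0.658), with 3 genes lower and 3 higher at an unadjusted p under 0.05, against 2.96% and 3.54% of all tested genes. DESeq2 called 0 of the 84, not all of which it gave an adjusted p, against 0.444% of the genes to which it gave one. Medians for the lists ran from -0.35 for brown fat to 0.28 for inhibitors of adipogenesis, nearer to the median over all genes, 0.0037, than that of the 9 markers.

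Among transcription factors, 5 of 11 tested genes were below 0 and 6 above (median 0.06). Cebpb was the most abundant per length, and Ebf1, a factor of both fat and B cells, stood at 68.2 ± 17.3 CPM in CTRL against 99.8 ± 24.1 CPM in CKO, a difference of 0.55 ± 0.22 (edgeR adjusted p = 0.723). Of the inhibitors of adipogenesis 5 of 6 were above 0 (median 0.28), with Dlk1, the preadipocyte factor, at 0.76 ± 0.54, Gata2 at 0.36 ± 0.28 and Hes1, the most abundant, at 0.20 ± 0.24. Of the secreted factors 3 of 5 tested were below 0 (median -0.07). Rbp4, retinol-binding protein, the most abundant of them per length, was at 583 ± 54.7 CPM in CTRL and 680 ± 49.8 CPM in CKO (0.22 ± 0.09). Retn, the hormone resistin of mouse fat, was at 2.03, 3.12 and 0.342 CPM in CTRL and at 1.24, 0.0988 and 0.209 CPM in CKO (-1.83 ± 1.06, edgeR adjusted p = 0.841). Lep, leptin, had 0 reads in all 6 libraries, which allows up to 0.133 CPM in the shallowest.

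Lipid droplet genes other than Plin1 and Cidec had 7 of 11 tested below 0 (median -0.07), with the caveolar genes Cav1 and Cavin1 at -0.23 ± 0.16 and -0.21 ± 0.17. In lipolysis, 4 of 5 tested genes were below 0 (median -0.19). Mgll, monoglyceride lipase, was at -0.34 ± 0.17, Pde3b, which mediates the antilipolytic effect of insulin, at -0.32 ± 0.21 and Abhd5, the activator of triglyceride lipase, at 0.11 ± 0.11. The synthesis list was evenly divided, 9 of 17 below 0 (median -0.01), and Scd1 and Acsl1 had its smallest p-values. Scd1, the stearoyl-CoA desaturase, measured 80.9, 70.2 and 53.7 CPM in CTRL and 51.0, 41.2 and 31.2 CPM in CKO. All CKO libraries were below all controls, as in 5.89% of all tested genes, and CTRL 3 was again the lowest control. The log2 fold change was -0.73 ± 0.21 (edgeR adjusted p = 0.658). Acsl1, which activates long-chain fatty acids, was at 36.3 ± 2.74 CPM in CTRL and 46.1 ± 3.69 CPM in CKO (0.34 ± 0.12, edgeR adjusted p = 0.700). Acly, ATP citrate lyase, the most abundant of the list, was at -0.01 ± 0.08.

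Among fatty acid uptake genes 5 of 7 were below 0 (median -0.13), with Cd36, the fatty acid translocase, at -0.34 ± 0.23 and Slc27a1 at -0.13 ± 0.12. Insulin response genes had 3 of 8 below 0 (median 0.08), with Irs1 at 0.31 ± 0.14 and the adiponectin receptor gene Adipor1 at 0.01 ± 0.09. Brown fat genes had 2 of 4 tested below 0 (median -0.35), and 3 of the 7 listed had too few reads for the test. Ucp1, the uncoupling protein that defines brown fat, had 1 read in CTRL 2 and 0 in the other libraries. Cox7a1 and Cox8b, cytochrome oxidase subunits of brown fat and of muscle, were at -1.05 ± 0.45 and -3.0 ± 1.40 (edgeR adjusted p = 0.752 and 0.787), with CTRL 2 highest for both, at 11.6 and 7.46 CPM.

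**Figure D3:**
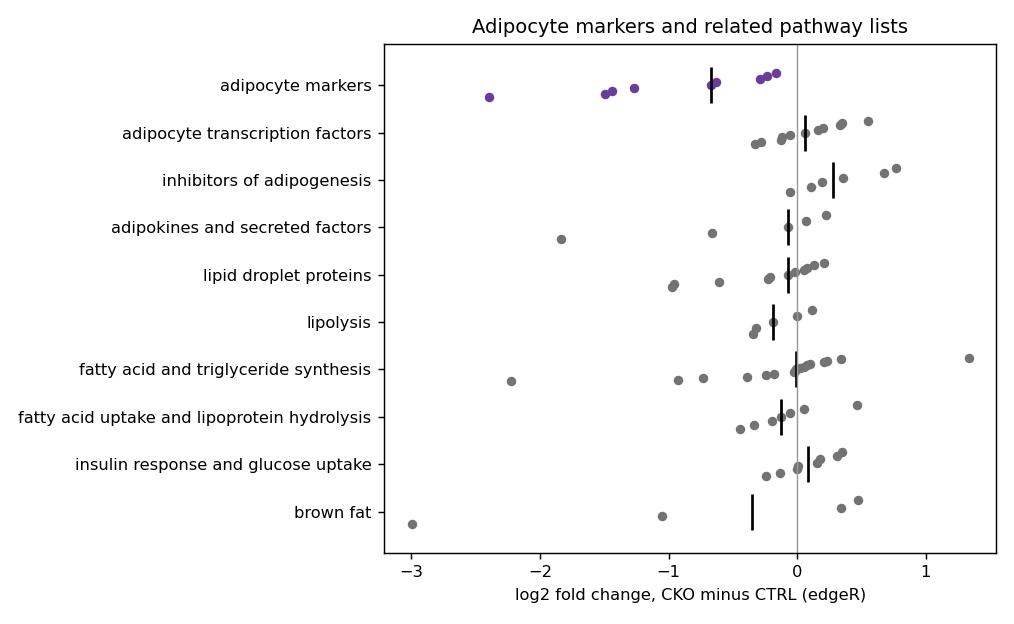
Log2 fold change (CKO minus CTRL) of the 9 adipocyte markers (purple) and of the tested genes of 9 related lists (grey), with a vertical black bar at each median. The markers' median of -0.67 lies left of every list median, which run from -0.35 to 0.28.

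Other fat-associated genes of these lists, chosen after their values were seen and given as a description, varied in different ways. Adrb3, the beta-3 adrenergic receptor of adipocytes, had 47, 32 and 1 reads in CTRL and 0, 0 and 4 in CKO, too few for the test. Pck1, a gene of liver and kidney that also supplies glycerol for triglyceride in fat, had 80, 60 and 0 reads in CTRL and 26, 1 and 0 in CKO, a difference of -2.23 ± 1.70 on the log2 scale (edgeR adjusted p = 0.887). Gpd1, which makes glycerol phosphate, was at 3.98, 4.34 and 1.94 CPM in CTRL and at 1.82, 2.5 and 1.05 CPM in CKO (-0.93 ± 0.48). Lipe, the hormone-sensitive lipase, was at 5.37, 5.88 and 7.30 CPM in CTRL and at 5.31, 5.46 and 5.52 CPM in CKO (-0.19 ± 0.24), with CTRL 3 the highest of the 6 libraries. G0s2, an inhibitor of triglyceride lipase, was at 10.7, 13.7 and 15.9 CPM in CTRL and at 12.3, 17.97 and 16.3 CPM in CKO (0.21 ± 0.22), with CTRL 3 the highest control.

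Markers of other cell types also differed between libraries. Skeletal muscle genes differed most: 11 genes summed to 68.4, 1374 and 41.4 CPM in CTRL and to 194, 252 and 45.2 CPM in CKO, with Acta1 (skeletal actin) at 762 CPM in CTRL 2 and at 4.73 to 99.2 CPM elsewhere. All 9 tested muscle genes were below 0 (median -1.29) and none passed. CTRL 2 was the highest library for this sum and for 8 of 9 adipocyte markers. It was also highest for the summed pericyte and smooth muscle markers, at 390 CPM against 272 to 345 CPM elsewhere. For endothelial markers it was highest by less, at 82.1 CPM against 39.7 to 78.6 CPM.

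Endothelial markers summed to 52.7 to 82.1 CPM in CTRL and 39.7 to 78.6 CPM in CKO (7 of 9 below 0, median -0.29), with Egfl7 the most abundant and Cldn5 at -0.73 ± 0.40. Macrophage markers summed to 706 to 960 CPM in CTRL and 535 to 739 CPM in CKO (9 of 9 below 0, median -0.28), with Lyz2 the most abundant and C1qa at -0.68 ± 0.21. Stromal progenitors of fat summed to 1011 to 1065 CPM in CTRL and 906 to 1019 CPM in CKO (8 of 10 below 0, median -0.28), with Ly6a at -0.50 ± 0.24 and Foxc1 at 0.24 ± 0.11. Fibroblast markers had 8 of 9 below 0 (median -0.44) and pericyte and smooth muscle markers 5 of 7 (median -0.87). Chondrocyte (2 of 10 below 0, median 0.21), osteoblast and osteocyte (1 of 8, 0.24) and neutrophil markers (1 of 8, 0.38) mostly lay above 0. Of 86 tested genes on the 10 cell type lists 0 passed by edgeR, with 5 lower and 10 higher at an unadjusted p under 0.05, against 2.96% and 3.54% of all tested genes. DESeq2 called 5 of them, 2 lower (Acan of cartilage and Fn1 of fibroblasts) and 3 higher, against 0.444% of all genes with an adjusted p. No gene on these lists was without reads in every library. The part of any of these cell types in the adipocyte values was not tested.

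**Figure D4:**
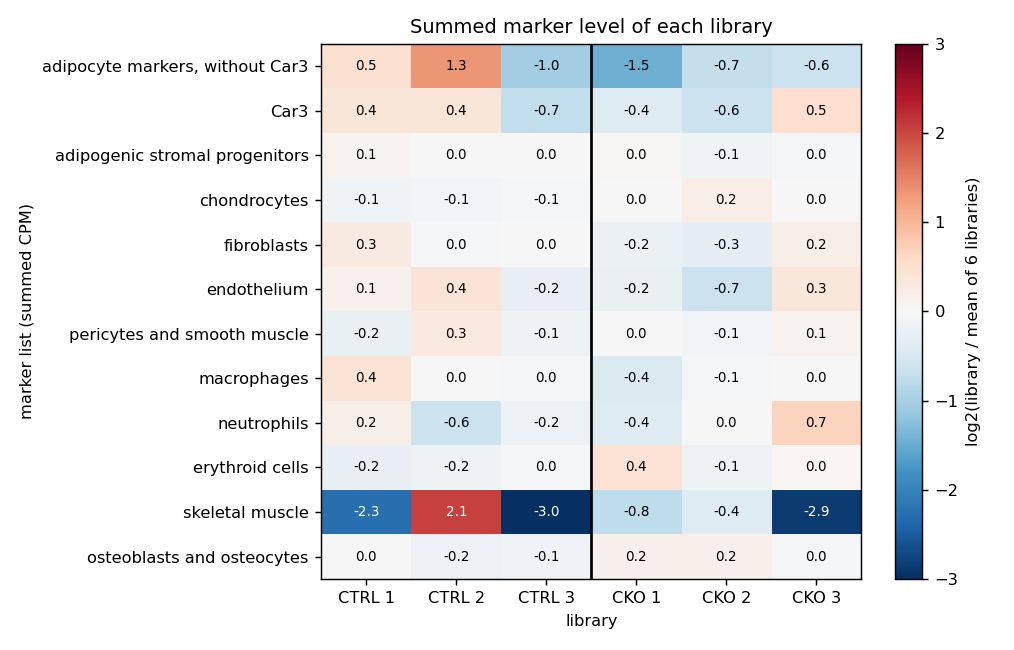
Summed CPM of each marker list in each library, as log2 of the ratio to the mean of the 6 libraries (red higher, blue lower), with Car3 apart from the other 8 adipocyte markers. CTRL 2 is highest for the 8 adipocyte markers (187 CPM), skeletal muscle (1374 CPM), pericytes and smooth muscle (390 CPM) and endothelium (82.1 CPM). For the 8 adipocyte markers, CTRL 3 (36.5 CPM) lies between CKO 1 (27.2 CPM) and CKO 2 (45.8 CPM).

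Summed over genes, the 8 markers other than Car3 gave 104, 187 and 36.5 CPM in CTRL and 27.2, 45.8 and 48.0 CPM in CKO. With Car3 the sums were 581, 666 and 258 CPM in CTRL and 309, 283 and 578 CPM in CKO. CTRL 3 lay within the CKO range in the first sum and below it in the second. No fit with all libraries or with 1 left out put a marker past an adjusted p of 0.05.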

How the data were processed

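RNA-seq was analysed for 3 CTRL and 3 CKO libraries, grouped and numbered by sample title. The authors deposited raw counts of reads per Ensembl gene, with no normalization, and a normalized signal for 23239 genes. That deposited signal equals the counts divided by 1 size factor per library: 100% of values above 0 came out as whole reads, within 0.001 of a read, and 0 differed from the count table. Per the submitters' processing notes, HISAT2 2.2.1 and featureCounts 2.0.1 were among the tools, besides FastQC 0.11.9, DESeq2 1.30.1 under R 4.0.5, and the build GRCm38. Whether counting used strand, and which annotation it used, these notes do not say. Symbols (found for 55141 identifiers), lengths and positions came from GENCODE M21 on GRCm38.

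Counts were filtered with filterByExpr, leaving 16260 genes with all 9 markers among them, scaled by TMM and tested with glmQLFit and glmQLFTest of edgeR 4.0.16 in R 4.3.3, with group as the only term, 4 residual degrees of freedom and Benjamini-Hochberg adjustment over all genes at 0.05. SE is the log2 fold change divided by the square root of F. An exact permutation test of 3 against 3 libraries cannot go below 0.1 and was not used. The functions were tested on simulated data. Depth limits precision: 3 reads are 0.0988 to 0.133 CPM, counting error only. Chi-square per degree of freedom between libraries of 1 group was 31.4 to 36.5, so none was counted as a duplicate.

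The markers and lists were chosen with earlier results of these data known, so no p was adjusted over them alone. Named are all 9 markers, their family relatives, from each pathway list the 2 genes with the smallest p and the most abundant, the like from each cell type list with 1 gene of smallest p, and the 10 genes most correlated with the markers' mean (log2 CPM, prior count 2). Not every gene the rule takes from these lists is reported here. Alternatives were DESeq2 1.42.0, voom and trend of limma 3.58.1 (the latter with a pseudocount of 1), other scalings and filters, a term for the replicate number, fits without each single library and, chosen after seeing the data, edgeR on the recovered reads.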

Additional observations from a re-analysis of the deposited data

How the results depend on the processing

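The number of adipocyte markers past the threshold was 0 under each of the 16 alternatives run. Among these, edgeR on the recovered reads used the same counts as the main fit, so its result could not differ. The markers' median log2 fold change stayed below 0, from -1.13 to -0.49 with single libraries left out. The number of genes past the threshold was 82 with DESeq2, 3 with no filter on low counts and 1 to 2 with single libraries left out (2 without CTRL 3). Of 144 fold changes of single markers under an alternative, 6 changed sign: Plin1 with limma-voom (0.46) and with limma-trend on the normalized signal (0.10), Pparg without CTRL 2 (0.77) and without CKO 1 (0.20), Cebpa without CTRL 2 (0.10) and Car3 without CKO 2 (0.048). With single libraries left out, Pparg ran from -0.65 to 0.77, Cebpa from -0.73 to 0.10 and Car3 from -0.59 to 0.048. The cause was not tested. At an unadjusted p under 0.05 there were 0 markers without CTRL 2 and 4 without CTRL 3, against 2 with all libraries.

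Libraries of the same number were not shown to be paired: their deviations from the group means had correlations of -0.02, 0.07 and 0.02 over genes, and with the replicate block 0 markers and 1 gene passed, with a marker median of -0.79. Depth limits Cebpa, Plin1, Cidec and Pparg most, with as few as 0 to 20 reads in their lowest libraries.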
